A study of Homo sapiens with 9 samples.

Results

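*GDF3* (ENSG00000184344), a single gene of the 36601 in the count tables, was followed through the embryonic and hypoblast lineages of human extra-embryoids (hEEs) on days 4 and 6 (D4 and D6). The gene was chosen because its level had already been seen to differ between these lineages and days, so its levels are given as a description, with no test. hEEs are aggregates that human pluripotent stem cells form in microwells without added lineage factors, with an inner embryonic-like compartment and an outer hypoblast-like layer. Both libraries came from hEEs of the human embryonic stem cell line ESI017, grown beforehand in human expanded potential (hEP) medium on inactivated CF-1 mouse feeder cells and freed of feeders before aggregation. The cells were wild type and had no treatment besides the culture protocol on both days. That protocol gave a ROCK inhibitor at the start of aggregation and switched to a second medium before D4. D6 hEEs were thus longer in that medium, which cannot be told apart from day. hEEs with visible inner and outer compartments were picked and, for each day, wells of independent experiments (different clones and passages of the line) were pooled into 1 library of transcript 3′ ends. There are thus no replicates, no difference between days can be tested, and day and library cannot be told apart. All intervals are 95% intervals that cover counting error only.

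The D4 library held 151712246 unique molecular identifiers (UMIs, 1 for each captured transcript) in 10943 barcodes, and the D6 library 150320228 in 11483. Cells within fixed limits of depth and with at most 10% mitochondrial UMIs were kept (from 3439 UMIs upward on D4, and up to 27461 on D6), 9151 on D4 and 10097 on D6, with median depths of 12717 and 12960 UMIs, and 40 barcodes occurred in both libraries. An embryonic gate took kept cells with at least 5 UMIs of *POU5F1*, at least 1 of *SOX2* and at most 2 of *FN1*, which gave 3716 cells on D4 and 5054 on D6. A hypoblast gate took those with at least 3 UMIs of *FN1*, none of *SOX2* and at most 5 of *POU5F1*, which gave 4061 and 3567. Most markers that the gates did not use followed the labels. *UTF1* was at 67.7 and 75.3 CPM (UMIs of the gene for every 1000000 UMIs, summed over the cells of a gate) in the embryonic gate, against 1.13 and 2.92 in the hypoblast gate. *GATA6* was at 121 and 297 CPM in the hypoblast gate, against 1.70 and 2.91 in the embryonic gate. The hypoblast marker *PDGFRA* differed little on D4, at 7.30 CPM in the hypoblast gate and 5.12 in the embryonic gate, and more on D6, at 70.1 and 5.63. The 8 trophoblast markers together had at most 6 UMIs in any gate.

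*GDF3* encodes a secreted ligand of the TGFβ superfamily, related to NODAL. It binds activin receptors together with the co-receptor TDGF1 (Cripto) and activates SMAD2 and SMAD3, and it can also hold back BMP signalling. It is best known as a transcript of pluripotent stem cells and the early epiblast. In RefSeq (GRCh38.p14, the same build as the hg38 of the count tables) it lies on the reverse strand at chr12:7689784-7695775, where no other RefSeq gene overlaps it. The pluripotency genes *DPPA3* and *NANOG* lie 15.7 kb and 93.6 kb beyond its 5′ end, so the gene is part of a cluster of genes linked to pluripotency. Because *GDF3* and *DPPA3* were higher together in the data below, the 250 bases before the RefSeq start of each are shown, *GDF3* at chr12:7695776-7696025 (reverse strand) and *DPPA3* at chr12:7711183-7711432 (forward strand), 5′ to 3′.
GDF3: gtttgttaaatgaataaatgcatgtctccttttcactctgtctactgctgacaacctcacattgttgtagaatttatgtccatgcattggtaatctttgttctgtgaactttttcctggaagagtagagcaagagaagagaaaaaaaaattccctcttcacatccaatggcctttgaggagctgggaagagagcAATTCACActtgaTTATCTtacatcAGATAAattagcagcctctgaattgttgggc
DPPA3: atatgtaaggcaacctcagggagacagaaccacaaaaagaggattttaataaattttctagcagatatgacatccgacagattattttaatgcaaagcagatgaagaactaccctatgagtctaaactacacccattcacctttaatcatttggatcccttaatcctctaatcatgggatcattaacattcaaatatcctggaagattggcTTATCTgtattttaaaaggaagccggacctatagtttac
Capitals mark matches to motifs searched on both strands. The letters AGATAA, a core that GATA factors bind, occurred on one strand or the other at 43 and 31 bases before the *GDF3* start and at 39 bases before the *DPPA3* start, counted from the match's first base as printed, and 9.21% of 34788 promoter windows of this length held such a match. The letters AATNCACA, a loose FOXH1 pattern with any base at N, occurred once, as AATTCACA, 56 bases before the *GDF3* start. They were held by 2.91% of windows, and the match was not checked against a stricter FOXH1 consensus. Neither the forkhead letters TGTTTAC (2.98% of windows) nor the octamer ATGCAAAT (1.62%) occurred in either window. No match overlapped another, and a match is a run of letters, not a measured binding site.

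In the embryonic gate, *GDF3* was low and at nearly the same level on both days. On D4, 1133 UMIs gave 19.6 CPM [18.5, 20.8], and on D6, 1358 UMIs gave 18.1 CPM [17.2, 19.1]. The log2 ratio of D6 over D4 was −0.11 [−0.23, 0.00], an interval that reached 0. The interval lay below 0 with stricter gates (−0.24 [−0.39, −0.09]) and without cells over 20000 UMIs (−0.16 [−0.30, −0.03]). Of 16506 genes compared in this gate, 2.21% were at least 2-fold higher on D6 and 0.885% lower, and *GDF3* was in neither set. A UMI was seen in 23.9% [22.5, 25.3] of these cells on D4 and 20.7% [19.6, 21.9] on D6. Most of the cells with *GDF3* had 1 UMI, 722 of 888 on D4 and 836 of 1047 on D6, and no cell had more than 8. After each cell was thinned to the same number of UMIs, the lower limit of depth, the shares were 6.30% [5.54, 7.13] and 5.50% [4.89, 6.17].

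In the hypoblast gate, *GDF3* was below the embryonic level on D4 and far above it on D6. It had 517 UMIs on D4, or 10.8 CPM [9.90, 11.8], and 8623 UMIs on D6, or 206 CPM [202, 211]. The level was 19.1-fold higher on D6, which is a log2 difference of 4.26 [4.13, 4.39]. Of 15181 genes with at least 50 UMIs over both days in this gate, 4.29% were at least 2-fold higher on D6 and 2.87% lower, and 18 had a larger ratio than *GDF3*. The share of cells with a UMI was 8.64% [7.80, 9.55] on D4 and 54.0% [52.3, 55.6] on D6, and 3.20% [2.68, 3.79] and 32.8% [31.3, 34.4] after thinning. The hypoblast-gate cells were the shallower ones, with median depths of 11012 and 10902 UMIs against 15157.5 and 14225.5 in the embryonic gate. The median depth of the hypoblast-gate cells was thus nearly the same on both days.

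The order of the lineages thus turned between the days. On D4 the embryonic gate was 1.81-fold higher than the hypoblast gate, a log2 ratio of 0.86 [0.71, 1.01]. On D6 it was 11.4-fold lower, a log2 ratio of −3.51 [−3.59, −3.43]. Among all genes compared on D6, 13.4% were at least 2-fold lower in the embryonic gate. With stricter, looser and *POU5F1*-free gates, the hypoblast gate's D6 level lay 4.14, 4.24 and 4.27 log2 units above its D4 level, so the difference was of like size under these settings.

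Cells with several *GDF3* UMIs were also counted. On D6, 1102 hypoblast-gate cells (30.9%) had 3 or more *GDF3* UMIs, against 38 cells (0.936%) on D4. Of the D6 cells, 194 had 10 or more, and the highest count was 32. In the embryonic gate, 47 cells (1.26%) had 3 or more on D4 and 56 (1.11%) on D6. The variance of thinned counts over their mean, which is 1 for random capture of an even level, was 1.05 and 1.13 in the embryonic gate, 1.52 in the hypoblast gate on D4 and 2.19 on D6. This ratio goes up with the mean, which on D6 was 0.0600 UMIs per thinned cell in the embryonic gate and 0.622 in the hypoblast gate. For D6 it thus does not order the gates by unevenness. On D4 the hypoblast gate had the lower mean, 0.0379 against 0.0667 in the embryonic gate, and yet the higher ratio.

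**Figure D1:**
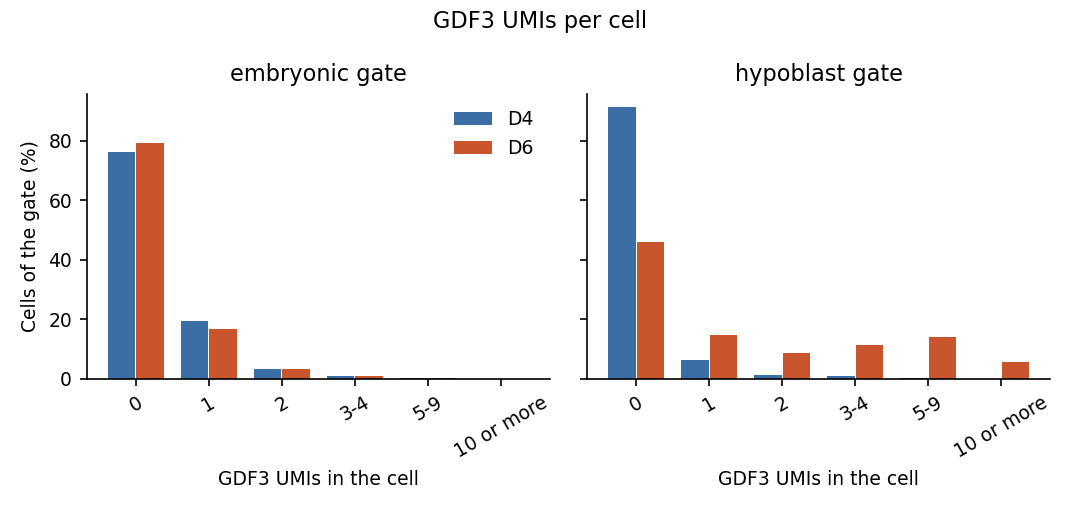
Percent of cells of each gate (vertical axis) by the number of *GDF3* UMIs in the cell (horizontal axis), with D4 in blue and D6 in orange and the embryonic gate at left, the hypoblast gate at right. In the hypoblast gate, cells without a UMI made up 91.4% on D4 and 46.0% on D6, while both days look alike in the embryonic gate.

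Depth moved with the *GDF3* level inside the hypoblast gate. On D6, cells in the lowest quartile of depth (median 7837.5 UMIs) were at 102 CPM and those in the highest quartile (median 16170.5) at 275 CPM, with 30.8% and 77.4% of cells positive. On D4 the same quartiles were at 8.49 and 12.1 CPM, and in the embryonic gate on D6 at 17.4 and 19.7 CPM. CPM is already scaled by depth, so depth and *GDF3* content went together among D6 hypoblast-gate cells, and the part of depth in this was not tested. The difference between the days was present in every quartile.

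Markers of each lineage were also counted at low levels in the other gate. On D6 the embryonic gate held *APOA1* at 0.752% of its hypoblast-gate level, *APOA2* at 0.868%, *FOXA2* at 0.884% and *GATA6* at 0.980%. The other markers were *GATA4* at 1.19%, *FN1* (used by the gates) at 1.91%, *PDGFRA* at 8.03% and *SOX17* at 13.5%. *GDF3* stood at 8.79%, close to *PDGFRA* and between the highest and the other markers. On D4, the pluripotency transcripts *ESRG* and *PRDM14* were in the hypoblast gate at 1.89% and 4.67% of their embryonic-gate levels, while *GDF3* was at 55.1%. Embryonic-gate cells of D6 with no *APOA1* UMI had *GDF3* at 17.6 CPM [16.1, 19.2], with 20.2% of 1943 cells positive at a median depth of 13686 UMIs. Those with 3 or more *APOA1* UMIs had 28.2 CPM [24.4, 32.4]. *GDF3* was thus also counted in embryonic-gate cells without a UMI of the abundant hypoblast transcript *APOA1*. How much of the embryonic *GDF3* was RNA from hypoblast cells was not tested.

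Smaller cell groups, set by UMI thresholds on 1 or a few genes, placed *GDF3* more finely. Within the hypoblast gate, cells with at most 4 *CER1* UMIs were split by *APOA1*, the main apolipoprotein of high-density lipoprotein and an abundant transcript of this lineage. *APOA1*-low cells (at most 19 UMIs) had *GDF3* at 4.49 CPM [3.73, 5.36] on D4 and 34.0 [27.5, 41.6] on D6. *APOA1*-high cells (20 or more) had 21.1 CPM [18.9, 23.5] and 219 [215, 224]. On D4 the *APOA1*-high interval overlapped that of the embryonic gate, while the *APOA1*-low cells lay below it. *CER1*-high cells (5 or more UMIs of this secreted NODAL antagonist, a marker of anterior hypoblast) had 11.8 CPM [8.85, 15.5] in 336 cells on D4 and 196 [169, 226] in 59 cells on D6. The D4 interval of these cells also lay below that of the embryonic gate. On D6, the intervals of *CER1*-high and *APOA1*-high cells overlapped.

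The groups outside the hypoblast gate had less *GDF3* on D6 than the *CER1*-high and *APOA1*-high cells. Embryonic-gate cells with 10 or more UMIs of *TAGLN*, an actin-binding protein gene, were at 24.2 CPM [20.6, 28.2] on D4 and 19.8 [13.6, 27.8] on D6. These groups share cells, and the 36 *TAGLN*-high cells of D6 that met none of the other small groups' thresholds had 4 *GDF3* UMIs, or 6.44 CPM [1.76, 16.5]. Embryonic-gate cells with 3 or more UMIs of *CYP26A1*, a retinoic acid-degrading enzyme gene, were at 22.6 [19.4, 26.2] and 15.9 [13.4, 18.7]. Cells chosen on *TFAP2A*, a gene of amnion and surface ectoderm, were at 17.1 [10.8, 25.7] and 15.4 [12.1, 19.2]. Cells chosen on the primitive streak gene *TBXT* were at 59.5 [28.5, 109] in only 9 cells on D4 and 35.2 [23.2, 51.2] in 46 cells on D6. Cells chosen on the mesoderm gene *HAND1* were at 9.36 [4.49, 17.2] in 80 cells of D6, where 11.3% had a UMI at a median depth of 12776. On D4 the intervals of neighbours in the order of levels overlapped from the *TAGLN*-high down to the *CER1*-high cells. On D6 they overlapped from the *TBXT* cells down to the *HAND1* cells.

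Cells that met the embryonic thresholds but also had 3 or more *FN1* UMIs carried markers of both lineages, and were the deepest, with medians of 21218 UMIs on D4 and 20809.5 on D6. They had *GDF3* at 15.3 CPM [12.6, 18.4] in 363 cells on D4 and 79.6 [73.8, 85.7] in 430 cells on D6. Both values lay between those of the embryonic and hypoblast gates of the same day. The part of barcodes that hold 2 cells in this was not tested.

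**Figure D2:**
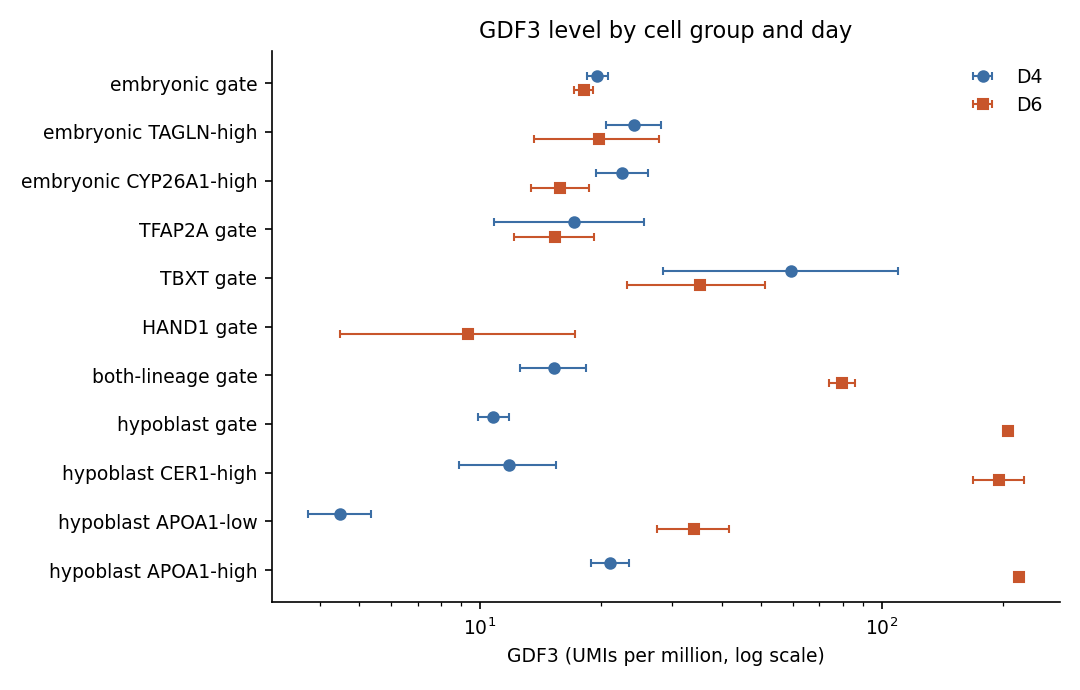
*GDF3* level in CPM on a log scale (horizontal axis) for each cell group (rows), with D4 as blue circles and D6 as orange squares and bars for 95% exact Poisson intervals. Groups of fewer than 9 cells are not drawn. The hypoblast-gate groups and the both-lineage gate sit to the right of their D4 values on D6, from 34.0 in *APOA1*-low to 219 in *APOA1*-high cells, while the embryonic gate stays at 19.6 and 18.1.

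Finer bins of *APOA1* showed the same graded relation on both days. These bins were set after the split above had been seen. On D4, *GDF3* in the hypoblast gate was at 3.57 CPM [2.49, 4.97] in cells with 0 to 4 *APOA1* UMIs, 12.6 [10.7, 14.8] at 20 to 49 UMIs and 64.4 [49.7, 82.1] at 100 up to 200 UMIs. On D6, the same bins were at 8.68 [3.49, 17.9], 92.4 [84.4, 101] and 231 [223, 239], and 839 cells with 200 or more were at 304 [294, 315]. Median depth was also higher in the upper bins, 9805.5 and 16383 UMIs in the first and the bin from 100 up to 200 of D4. With every cell thinned to the lower limit of depth, cells with 0 or 1 *APOA1* UMI were at 6.19 CPM [3.96, 9.21] on D4 and 21.9 [8.02, 47.6] on D6, and cells with 20 to 39 were at 62.5 [43.0, 87.7] and 178 [165, 192]. The thinned D4 series was not graded at its low end, with 4.09 CPM [2.42, 6.46] at 2 to 4 *APOA1* UMIs. *GDF3* was higher on D6 in every bin, with overlapping intervals in the lowest bin both before and after thinning. The bins are wide, and mean thinned *APOA1* was 5.49 UMIs on D4 and 40.6 on D6, so *APOA1* content within a bin may differ between days.

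**Figure D3:**
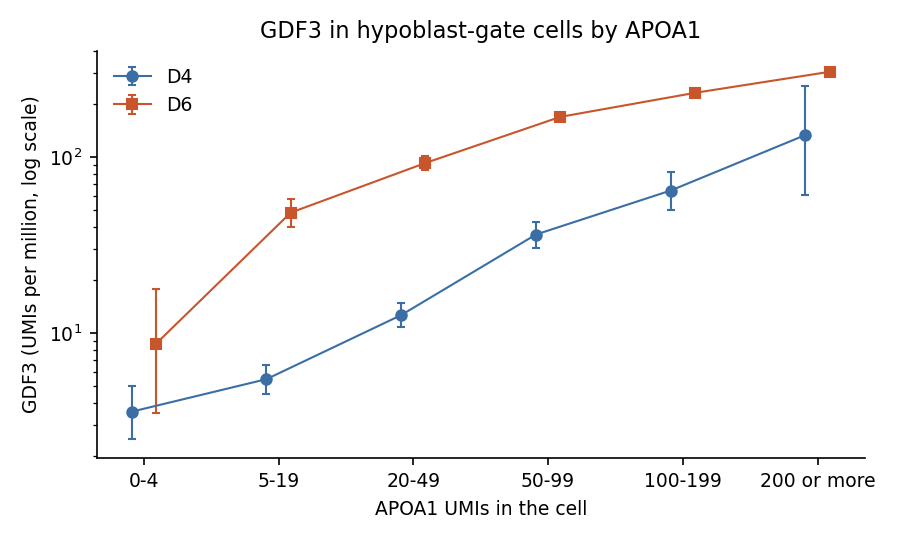
*GDF3* level in CPM on a log scale (vertical axis) of hypoblast-gate cells by the number of *APOA1* UMIs in the cell (horizontal axis), with D4 as blue circles, D6 as orange squares and bars for 95% exact Poisson intervals. Each series runs upward from left to right, from 3.57 to 133 on D4 (the last bin holds 4 cells) and from 8.68 to 304 on D6.

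The other parts of the GDF3 and NODAL pathway moved in several ways, and levels are compared between groups of cells for the same gene only, since 3′ counts of different genes are not on 1 scale. Among activin-type ligands, none of the 4 others with enough UMIs was 2-fold higher on D6 in the hypoblast gate and 1 was lower. *NODAL*, the closest ligand in function, was at 39.3 CPM on D4 and 59.0 on D6 there, a log2 ratio of 0.59 [0.50, 0.67], and at 6.80 and 3.31 CPM in the embryonic gate. *TGFB1* had a log2 ratio of 0.53 and *GDF11* of 0.38 in the hypoblast gate. *INHBA*, which encodes the activin A subunit, went from 4.54 CPM to no UMI. Of 7 further BMP and GDF ligands with enough UMIs, 4 were at least 2-fold higher on D6 in the hypoblast gate and 1 was lower, where 4.29% of all genes compared were higher and 2.87% lower. The largest ratio was that of *GDF15*, a stress-responsive ligand, at 10.0 CPM on D4 and 89.6 on D6, and *BMP6* was at 7.19 and 31.0. *BMP7* was lower, at 68.2 and 26.4 CPM. The median log2 ratio was 1.16 over these 7 ligands, against −0.0039 over all genes compared.

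Genes of the receiving side of the pathway were counted in both gates. *TDGF1*, the co-receptor, was at 186 and 164 CPM in the embryonic gate and 228 and 221 CPM in the hypoblast gate. A second co-receptor gene, *CFC1* (Cryptic), was nearly limited to the hypoblast gate, at 16.4 and 16.3 CPM there against 0.363 and 0.508. None of 9 receptor genes differed by 2-fold between the days in either gate, which is near the background, since few of all genes did (4.29% higher and 2.87% lower in the hypoblast gate, 2.21% and 0.885% in the embryonic gate). *ACVR2B* was at 75.4 and 76.9 CPM in the embryonic gate and 69.4 and 71.3 in the hypoblast gate, and the type I receptor gene *ACVR1B* at 22.5 and 19.9 CPM in the latter. Of 8 genes for SMAD proteins and their partners, 1 passed 2-fold, *SMAD3*, at 2.05 CPM on D4 and 5.65 on D6 in the hypoblast gate. *FOXH1*, the DNA-binding partner of SMAD2 and SMAD3, was at 123 and 131 CPM there. None of 4 convertase genes, whose enzymes cut such ligand precursors, passed 2-fold.

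Of 7 genes for extracellular antagonists, 1 was at least 2-fold higher on D6 in the hypoblast gate and 2 were lower, beside 4.29% and 2.87% of all genes. *LEFTY2* was at 293 CPM on D4 and 16.9 on D6, and *CER1* at 213 and 40.2. *LEFTY1* stayed level there, at 154 and 172 CPM, while in the embryonic gate it was at 105 and 9.84. *FST* (follistatin, which binds activins) was at 346 and 649 CPM, short of 2-fold, and the 1 that passed, *DAND5*, was near the floor at 0.355 and 1.15.

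The lists of pluripotency genes differed from each other. None of the 18 genes of a shared pluripotency list passed 2-fold between the days in the embryonic gate, nor did any of the 17 compared in the hypoblast gate, where their median log2 ratio was 0.03. Both counts lie near the background given for the receptor genes. *LIN28A*, an RNA-binding protein of stem cells, was at 313 and 273 CPM in the hypoblast gate and *SALL4* at 179 and 152. Of 7 genes compared from a list of naive pluripotency, 5 were at least 2-fold higher on D6 in the hypoblast gate and none lower, beside 4.29% and 2.87% of all genes, and their median log2 ratio was 1.40 against −0.0039 over all genes. They were *DPPA3*, *KLF5* (23.4 and 70.8 CPM), *DNMT3L* (3.70 and 15.4 CPM), *NLRP7* and *TFCP2L1*, of which the last was at 0.795 and 1.60 CPM. *KLF17* and *DPPA5*, also of the naive list, had at most 1 UMI in the hypoblast gate. Of 13 genes of a primed list, *ZIC2* was higher (85.1 and 172 CPM) and *THY1* lower (10.2 and 3.66 CPM) by 2-fold or more in the same gate.

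Of the chromosome 12 neighbours with at least 50 UMIs, *DPPA3* alone was 2-fold or more higher on D6 in the hypoblast gate, by less than *GDF3*. *DPPA3*, a maternal and germ cell factor, was in the hypoblast gate at 6.73 CPM on D4 and 44.3 on D6, which is a log2 difference of 2.72 [2.55, 2.89]. In the embryonic gate it was at 1.96 and 3.63 CPM, a log2 ratio of 0.89 [0.57, 1.22]. Unlike *GDF3*, it was thus already higher in the hypoblast gate on D4. *NANOG* was an embryonic-gate gene on both days, at 53.9 and 63.8 CPM, and stood at 7.71 and 13.0 CPM in the hypoblast gate, a log2 ratio of 0.75 [0.55, 0.94]. *APOBEC1*, on the other side of *GDF3*, had at most 2 UMIs in any gate. Farther out, *SLC2A3*, a glucose transporter gene, had a log2 ratio of 0.42 in the hypoblast gate, *FOXJ2* of −0.22 and *NECAP1* of 0.35. *ACSM4*, 361 kb away, went the other way, with a log2 ratio of −1.79 [−2.09, −1.50]. Of the 8 neighbours compared, 1 was higher by 2-fold or more, and 1 was lower, beside 4.29% and 2.87% of all genes compared in this gate.

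**Figure D4:**
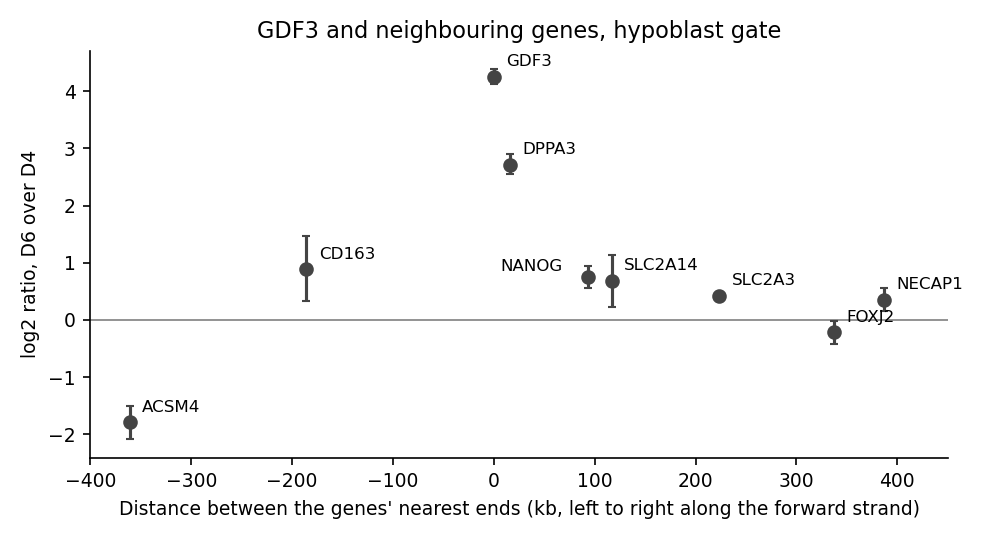
Log2 ratio of D6 over D4 in the hypoblast gate (vertical axis) for *GDF3* and the 8 neighbouring genes with at least 50 UMIs, by distance from *GDF3* in kb (horizontal axis), with bars for 95% exact conditional binomial intervals. *GDF3* at 4.26 and *DPPA3* at 2.72 stand above the other neighbours, which lie between −1.79 and 0.89.

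Over 20 groups of at least 30 cells with no cell in common, 8330 genes were compared with *GDF3* by Pearson's r of log2(CPM + 1). The 10 highest were *HP* (r = 0.87), *PPP1R14A*, *COMMD7*, *FAM83F*, *CERS4*, *APOC3*, *PDGFRA*, *FAT3*, *APOM* and *HOMER3* (0.80). The groups of 1 day share a library, so r is a description. *HP* (haptoglobin) was at 1.61 CPM on D4 and 70.2 on D6 in the hypoblast gate, *APOC3* at 0.502 and 20.3, and *APOM* at 4.41 and 31.6, all 3 genes of secreted plasma or lipoprotein proteins. *PDGFRA*, a receptor gene that marks hypoblast, was at 7.30 and 70.1 CPM. The others of the 10 differed less between the days there, with log2 ratios from 0.63 for *COMMD7* to 1.62 for *CERS4*. The 10 genes were chosen over groups of both days, so such differences are part of the choice. *DPPA3* came at rank 77 with r = 0.67, *NODAL* had r = 0.38, *TDGF1* 0.29 and *NANOG* −0.10.

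Within the embryonic gate, cells with and without a thinned *GDF3* UMI were compared for all other genes. On D4, 234 cells with *GDF3* were set against 3482 without, and 79 of 6760 genes (1.17%) were at least 1.5-fold higher and 290 (4.29%) lower. On D6, 278 were set against 4776, and 109 of 8024 genes (1.36%) were higher and 343 (4.27%) lower. The 10 leading genes of D4, from *SERPINB9* (log2 ratio 1.21) and *OPA3* (1.02) down, had between 22 and 31 UMIs in the cells with *GDF3*, and 3 of them were above 0 on D6. Of the 10 leading genes of D6, 5 were above 0 on D4. The 10 lowest genes had 3 to 6 UMIs in the cells with *GDF3* on D4 and 4 to 6 on D6. Of the 10 lowest of D4, 7 were below 0 on D6, and of those of D6, 4 were below 0 on D4. With so few UMIs, the counts of lower genes are not read as a result about *GDF3*. The leaders on D6 with many UMIs were *CST1* (log2 ratio 1.52 [1.24, 1.80]) and *APOA1* (1.45 [1.23, 1.66]), the latter at 219 CPM against 80.5. *APOA1* marks hypoblast, and of the 3 hypoblast markers compared it alone passed 1.5-fold. Of the others compared, *FN1* had a log2 ratio of 0.52 [−0.09, 1.08]. *SOX17* went the other way, at −0.36 [−1.44, 0.55]. *FOXA2* and *GATA6*, with too few UMIs to be compared (5 and 6 in cells with *GDF3*), had log2 ratios of 2.72 [0.88, 4.30] and 1.52 [−0.02, 2.78]. Also with too few UMIs were *APOA2* at 1.17, *GATA4* at 1.78 and *PDGFRA* at 0.21. The interval of *APOA2* lay above 0, and those of *GATA4* and *PDGFRA* included 0. The part of hypoblast RNA in these cells was not tested. Among amnion markers, the 1 compared on D6, *TFAP2A*, also passed 1.5-fold, at a log2 ratio of 0.79 [0.25, 1.28]. *POU5F1* (log2 ratio −0.01 and 0.00) and *SOX2* (−0.10 and −0.08) did not separate the cells with *GDF3*.

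In the hypoblast gate on D6, the same split was made after the levels had been seen. There 1170 cells with *GDF3* were set against 2397 without, and 82 of 6916 genes (1.19%) were at least 1.5-fold higher and 176 (2.54%) lower. The leading gene was *HP*, at 115 CPM with *GDF3* and 30.3 without, a log2 ratio of 1.92 [1.70, 2.15]. It was followed by *IGFBP5*, a binding protein of insulin-like growth factors, at 252 and 72.0 CPM (1.81 [1.66, 1.96]), and *GSC*, a homeobox gene of organizer and anterior endoderm, at 58.6 and 17.6 CPM (1.73 [1.43, 2.04]). *DPPA3* came next, at 79.8 and 25.9 CPM (1.62 [1.37, 1.88]). *GATM*, an enzyme of creatine synthesis, and the forkhead gene *FOXQ1* had log2 ratios of 1.62 and 1.55. *LEFTY1*, a NODAL target and antagonist, was at 256 CPM against 106 (1.27 [1.14, 1.40]), and *NODAL* itself at 73.8 against 43.2 (0.77 [0.55, 1.00]).

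The genes that were lower beside *GDF3* on D6 included plasma protein genes of another set. *FGB* and *FGA*, which encode fibrinogen chains, were at 12.2 CPM with *GDF3* against 80.9 without (log2 ratio −2.73 [−3.18, −2.31]) and 6.73 against 22.4 (−1.73). *IGFBP3* had a log2 ratio of −1.77, *BMP7* of −1.57 [−2.04, −1.13], the tight junction gene *CLDN3* of −1.49 and the matrix protease gene *MMP2* of −1.41. *BMP2*, a ligand abundant in the hypoblast gate, was at 141 against 224 CPM (−0.67). *POU5F1*, at most 5 UMIs by the gate, was at 24.7 against 49.7 CPM. Core hypoblast markers differed by less than 1.5-fold, with *SOX17* at a log2 ratio of −0.01, *GATA4* at 0.01, *FOXA2* at 0.16, *APOA1* at 0.29 and *GATA6* at 0.53.

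Of the 10 genes that led on D6 in the hypoblast gate, 8 were above 0 on D4, where 130 cells with *GDF3* were set against 3931. The median over all genes compared on D4 was −0.04, so lying above 0 is common. Of the 10, only *FOXQ1* and *GATM* (0.98 [0.04, 1.78]) had D4 intervals above 0, and *HP* had 2 UMIs in cells with *GDF3*. *FOXQ1* was among the leading 10 on both days, and its D4 log2 ratio was 1.65 [1.02, 2.23]. Of the 10 lowest on D6, 7 were below 0 on D4, where the intervals of *LINC00379*, *BMP7*, *RAB31* and *MMP2* lay below 0. *LINC00379* was among the lowest on both days (−3.46 with 1 UMI in cells with *GDF3* on D4, and −2.30 [−2.75, −1.88] on D6). *FGB* was not, with a D4 log2 ratio of 2.83 from 4 and 17 UMIs. On D4, 287 of 7310 genes (3.93%) were higher and 781 (10.7%) lower. These D4 counts rest on only 130 cells with *GDF3*, where the 10 lowest genes had 0 or 1 UMI. They are thus not comparable with the D6 counts.

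Hypoblast-gate cells with 0, 1, 2 or 3, and 4 or more thinned *GDF3* UMIs on D6 numbered 2397, 614, 434 and 122, and the genes followed through them were picked after their values were seen. Across these bins *DPPA3* was at 25.9, 63.6, 88.1 and 132 CPM. *IGFBP5* was at 72.0, 187, 291 and 445 CPM. *NODAL* was at 43.2, 63.2, 80.7 and 103 CPM, a lesser slope in the same direction. *HP*, *GSC*, *FST*, *TDGF1* and *APOA1* also lay higher in each further bin. *LEFTY1* and *CER1* showed no steady order. *LEFTY1* was at 106, 233, 297 and 230 CPM. *CER1* was at 36.9, 20.9 and 27.6 CPM and, on 5 UMIs, 12 CPM. *FGB* went the other way, at 80.9, 13.8 and 13.4 CPM and with no UMI in the last bin, where the interval reached 8.83 CPM, and *APOB*, the protein of low-density lipoprotein, was at 108, 52.7, 28.9 and 28.7. *NANOG* was at 12.4, 10.9, 14.1 and 16.8 CPM with overlapping intervals. The median depths of the bins before thinning were 10435, 11953, 12300.5 and 12181.5 UMIs.

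**Figure D5:**
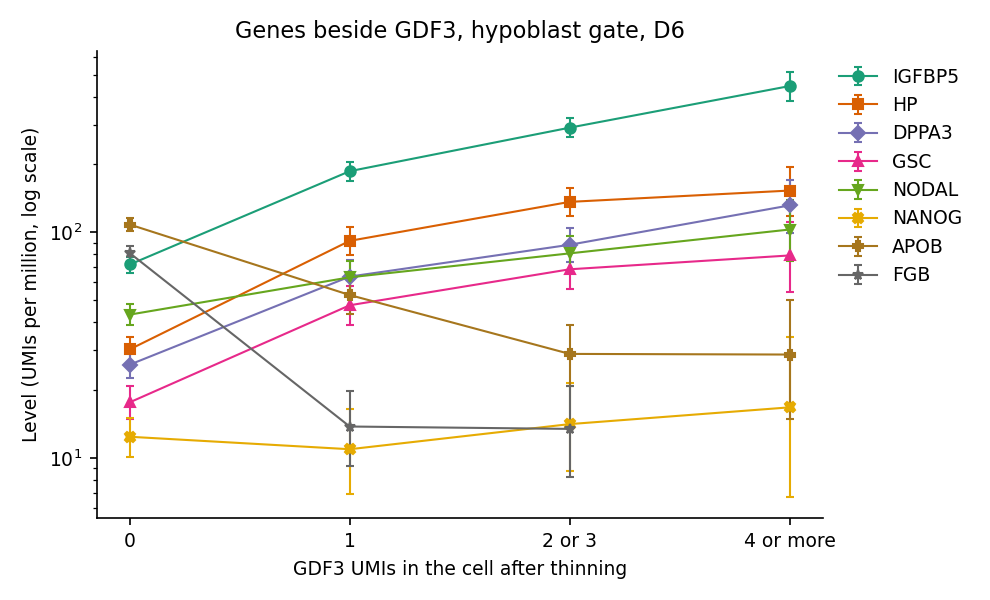
Level of 8 genes in CPM on a log scale (vertical axis) in D6 hypoblast-gate cells by the number of *GDF3* UMIs left in the cell after thinning (horizontal axis), with bars for 95% exact Poisson intervals. *IGFBP5*, *HP*, *DPPA3*, *GSC* and *NODAL* lie higher to the right, *FGB* (no UMI in the last bin, so no point) and *APOB* lower, and *NANOG* stays between 10.9 and 16.8.

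On D6, *DPPA3* was also detected in a larger share of the cells with *GDF3* than of those without. In the hypoblast gate, 20% [17.7, 22.4] of cells with a thinned *GDF3* UMI had one of *DPPA3*, against 7.30% [6.29, 8.42] of cells without. Within the lowest quartile of depth the shares were 14.1% and 3.74%, and within the highest 24.2% and 10.9%, so the difference was present at like depth. For *NANOG* the shares were 3.85% [2.82, 5.11] and 3.92% [3.18, 4.78]. In the embryonic gate on D6, *DPPA3* was in 1.80% [0.587, 4.15] and 1.19% [0.905, 1.54] of cells with and without *GDF3*, a difference not detectable at this depth.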

How the data were processed

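The authors deposited, for each day, UMI counts per gene and barcode from Cell Ranger 6.0.1 (file header) on hg38, with no normalization. Seurat 4.0.1 and R 4.0.3 are also listed in the submitters' processing notes, but their output was not used here. The 7 bisulfite libraries were not analysed here. *GDF3*, the gates and the gene lists were chosen with earlier results of these data known. UMIs were summed per gate and scaled to all UMIs of the gate (CPM), with exact Poisson, exact binomial (shares) and exact conditional binomial (log2 ratios) intervals. The genes named are *GDF3*, members of the lists by role, the 10 genes most like it over cell groups, the 10 leading genes beside it per day, and its neighbours. Genes had to have at least 50 UMIs over both sides (200 thinned UMIs for cells with and without *GDF3*, where *GDF3* was left out of the totals). Patterns used genes at 20 CPM or more in a group, with the gate genes left out. Each cell was thinned once, with a fixed seed, to the lower limit of depth. No doublet caller was run. The upper limit of depth and the gates limited doublets, and leaving out cells over 20000 UMIs was an alternative. In the naive list, 13 of 14 symbols were found. Alternatives changed the cell filter, gates, depth and measure of level. Promoters came from RefSeq (GRCh38.p14), with both symbols matched. The ratio and its interval were run on simulated independent Poisson counts. The interval assumes such counts, so this covers the computation and not the spread between cells. Python 3.11.15, numpy, pandas and scipy were used.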

Additional observations from a re-analysis of the deposited data

Results flagged for a closer look

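*GDF3* differed between the gates in its change from D4 to D6, with a log2 ratio of D6 over D4 of −0.11 in the embryonic gate and 4.26 in the hypoblast gate. The changes differed by 4.37 log2 units. With 1 library per day the difference was not tested, and the embryonic value is near 0.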

How the results depend on the processing

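The 4 *GDF3* log2 ratios kept their direction under all 7 alternatives. Stricter gates moved the embryonic ratio of D6 over D4 to −0.24 [−0.39, −0.09], and leaving out cells over 20000 UMIs to −0.16 [−0.30, −0.03], intervals that no longer reached 0. Thinning moved the hypoblast ratio of D6 over D4 to 4.04 and the D6 embryonic over hypoblast ratio to −3.38, and the mean of the cells' own CPM moved the latter to −3.39. The shares depended on depth. Thinning gave 6.30% and 5.50% in the embryonic gate at D4 and D6 and 3.20% and 32.8% in the hypoblast gate, and leaving out cells over 20000 UMIs gave 21.8% and 19.4% in the embryonic gate. Counts of genes higher beside *GDF3* depended most on the settings. In the embryonic gate they were 79 and 109, against 16 and 17 on unthinned counts and 512 and 606 with a floor of 50 thinned UMIs. In the hypoblast gate at D6, with alternatives chosen after seeing the data, the count of 82 became 186 and 235. Of 73 alternative values in all, 56 kept within the interval of the main value or within 1.5 times the count. A reversal could be called only for *GDF3* log2 ratios whose main interval excluded 0, and none of these reversed. No paired analysis was possible because each day is 1 library and the results come from no test. A single library per day limits every comparison of days, and low embryonic counts (1133 and 1358 UMIs) limit what can be seen beside *GDF3* there.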

Other observations

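Barcodes that the filter removed had *GDF3* at 17.2 CPM [15.7, 18.8] at D4 and 86.9 [82.0, 92.0] at D6. Cells in neither gate were at 13.9 [12.3, 15.7] and 110 [105, 114]. Only 6 cells, all of D6, met thresholds on the germ cell gene *NANOS3*, with 2 *GDF3* UMIs in 1 of them. *PAX6*, listed as a neural marker, was in the hypoblast gate at 18.8 CPM at D4 and 42.9 at D6, and the other 3 neural markers together had 4 UMIs there at D4 and none at D6.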
